A study of Mus musculus with 20 samples.

Results

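Elastic fibres consist of a core of crosslinked elastin laid down on a scaffold of fibrillin microfibrils. Microfibril-associated glycoproteins decorate the fibrillin, fibulins and emilins join elastin to it, and lysyl oxidases then crosslink the elastin. In the kidney these fibres are best known from the walls of arteries and the tissue around them, and the fibrillin microfibrils also lie in the mesangium and interstitium. Here 9 genes of this assembly were followed, chosen by name among 47069 genes of the count table: Eln, the core protein; Fbn1, Mfap2 and Mfap5 of the microfibril; Mfap4, a microfibril-associated protein; the fibulins Fbln1, Fbln2 and Fbln5; and Emilin1. Mfap4 was selected on its measured values in the treated mice, which had been seen to differ between the treatments. Those values are therefore given as a description with no test. The other members entered by what they encode, with earlier results of these data known. All 9 members passed the filter on low counts and were among the 17622 genes tested.

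The data were RNA sequencing of kidneys from 20 male mice, each a separate library. All groups were F1 hybrids of 129SJ and C57Bl/6J, sacrificed at 15 weeks of age. WT mice (n = 5) were untreated, and the other groups lacked a working Col4a3, a chain of the type IV collagen of the glomerular basement membrane, which makes them a model of Alport syndrome. From 5 weeks of age the Veh mice (n = 6) received weekly subcutaneous PBS, the anti-miR-21 mice (n = 6) weekly subcutaneous lademirsen, an oligonucleotide against miR-21, at 50 mg/kg, and the ACEi mice (n = 3) the angiotensin-converting enzyme inhibitor ramipril at 11 mg/L in drinking water together with weekly subcutaneous PBS. Each treatment was given at 1 dose and for 1 duration, to the whole animal, and no WT mouse received vehicle.

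Estimated counts summed to between 28474301 and 29479629 per library, a range narrow enough that depth differed little between groups. The kidney marker Umod lay between 1796 and 5719 (CPM, counts scaled to library size with TMM factors between libraries) in every library, as in kidney, although the extraction text in the labels speaks of adipose tissue. Col4a3 transcript averaged 217 ± 16.4 CPM (SD) in WT mice against 37.8 ± 7.63 in Veh, 58.8 ± 11.1 in anti-miR-21 and 48.5 ± 6.97 in ACEi mice. The libraries ran on 2 flow cells, 13 on A and 7 on B, with WT split 3 and 2, Veh 4 and 2, anti-miR-21 5 and 1, and ACEi 1 and 2. Summed adipocyte markers exceeded 30 CPM in Veh mice A1, A4 and A9 and in anti-miR-21 mouse A12, at 81, 113, 78.5 and 92.6 CPM, and urothelium markers summed to 150 CPM in A1 and 87.4 in A4. Results of the members that changed without the 4 mice rich in adipocyte transcripts are given with and without them. The lists of other genes and of markers were not rerun without these mice.

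The target of lademirsen is shown first, because its seed defines which letters a direct match in a member would hold. In the RefSeq sequence (GRCm38.p6, chr11:86584120-86584141, minus strand) the seed, bases 2 to 8, is in capitals.
mmu-miR-21a-5p: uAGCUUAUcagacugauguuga
The DNA letters complementary to this seed, ATAAGCT, were searched in the 3' untranslated region of the longest protein-coding transcript of each gene in GENCODE vM21. None of the 9 members held them, while 1141 of 15299 tested protein-coding genes did (7.46%). The regions searched ran from 325 bases for Emilin1 to 4177 for Fbln5. The absence says only that these 7 letters do not occur in these windows.

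RefSeq start sites were found for 6 members, in 9 windows of 250 bases before the start, and Eln, Mfap4 and Mfap5 had no entry. One window each is shown for Mfap2, whose level differed most between Veh and WT mice among the members with an entry, and Fbln5, whose level did not pass that test. Both windows are from GRCm38.p6, read 5' to 3' on the gene's strand, and lie at chr4:141010174-141010423 (plus) and chr12:101819120-101819369 (minus). Capitals mark matches to the motifs searched, on either strand.
Mfap2: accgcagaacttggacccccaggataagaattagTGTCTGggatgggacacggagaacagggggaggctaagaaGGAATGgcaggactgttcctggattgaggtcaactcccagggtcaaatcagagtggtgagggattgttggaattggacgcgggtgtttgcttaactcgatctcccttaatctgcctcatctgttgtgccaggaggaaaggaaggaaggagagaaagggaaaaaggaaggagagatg
Fbln5: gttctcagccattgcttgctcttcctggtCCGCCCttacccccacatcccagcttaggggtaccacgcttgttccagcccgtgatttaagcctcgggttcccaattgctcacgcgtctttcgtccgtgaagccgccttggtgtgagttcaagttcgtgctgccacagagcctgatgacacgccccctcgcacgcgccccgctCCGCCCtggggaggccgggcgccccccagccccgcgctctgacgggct
The Mfap2 window held CAGACA, the Smad letters, and CATTCC, the TEAD letters, each once and on the opposite strand. The Fbln5 window held the GC box GGGCGG in 2 places, each as its complement CCGCCC. Each of these genes has another window that is not shown. That of Mfap2 held GGGCGG in 2 places and neither CAGACA nor CATTCC. That of Fbln5 held CAGACA and no GGGCGG, so the motifs differ between windows of the same gene. Over the 9 windows CAGACA was found in 5, of Emilin1, Fbln1, Fbln5 and Mfap2, against 17.1% of all 32851 windows of this length, and GGGCGG in 5, of Fbln1, Fbln2, Fbln5, Fbn1 and Mfap2, against 32.7%. CATTCC was found in 1 (12.6% of all windows). The TATA box TATAAA (12.4%), the AP-1 letters TGANTCA (6.75%) and the CArG box (1.47%) were found in none of them. No matches overlap each other in the windows shown, and a match is not evidence of binding. Windows of 1 gene can overlap, and those of Fbln1 do, so 1 CAGACA match of Fbln1 is counted in both of its windows.

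In untreated disease 8 of the 9 members were higher in Veh than in WT mice, by 4.84-fold (Fbln1) to 22.7-fold (Mfap5), and their groups did not overlap. The 1 exception was Fbln5. The share of all genes tested that were called higher in Veh mice was 39.0%, and the share whose Veh values all lay above the WT values was 28.8%. The median log2 fold change of the members was 2.87, against 0.07 for all genes tested. In bulk tissue more cells of a type and more RNA per cell cannot be told apart. The plot of each mouse's CPM by gene shows these values.

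**Figure D1:**
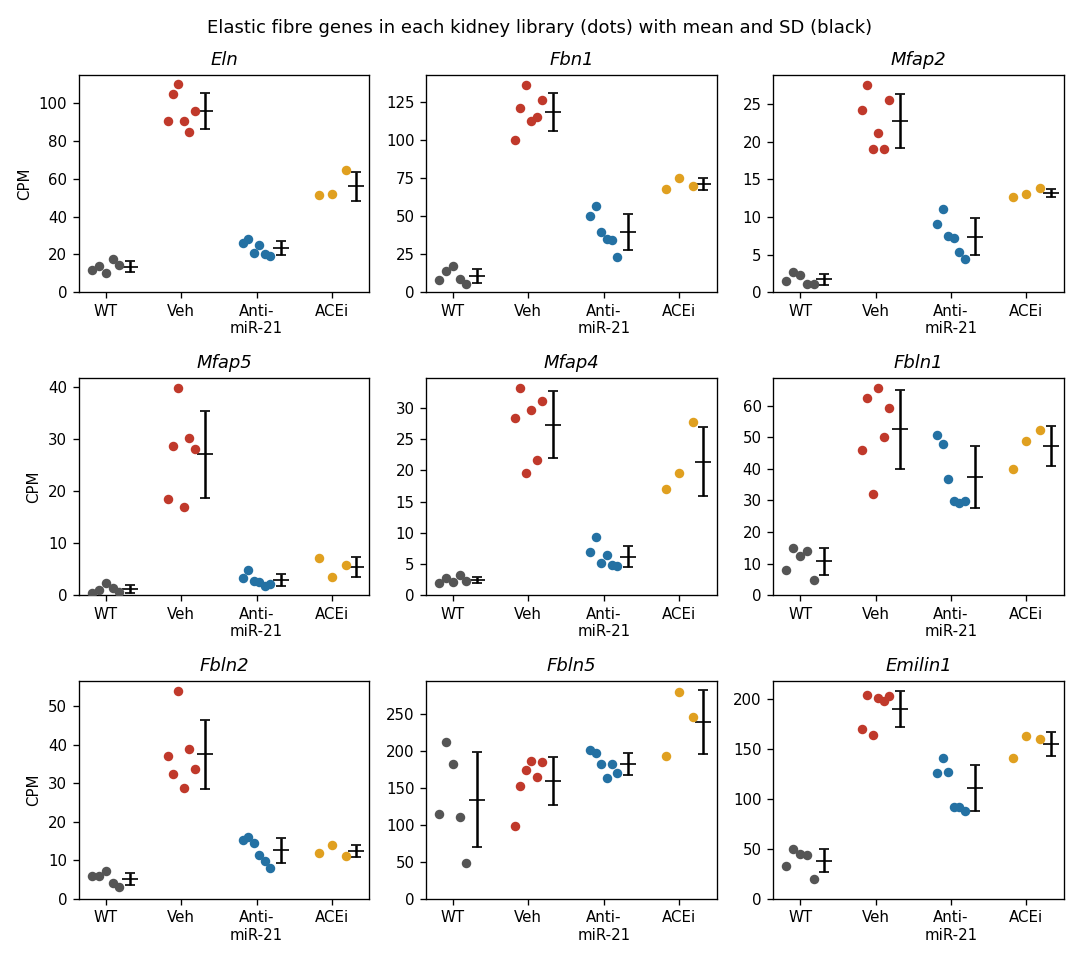
CPM of each of the 9 genes (y axis, linear, from 0) in each mouse (dots) by group (x axis), with the group mean and SD in black beside the dots. The Veh dots lie above all WT dots for every gene but Fbln5, and the anti-miR-21 dots lie between those groups for Eln, where they run from 19.1 to 28.3 CPM.

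Eln encodes tropoelastin, the soluble precursor of the fibre core (chr5:134702593-134747323, minus strand, GRCm38). The WT mice had 11.5 (A3), 13.7 (A6), 10.2 (A14), 17.4 (A17) and 14.6 (A18) CPM. The Veh mice ran from 84.7 to 110 with a median of 93.3. Veh was 7.12-fold higher (log2 fold change 2.83, SE 0.13, adjusted p = 1.3e-12). The lowest Veh mouse held several times the highest WT level.

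Under anti-miR-21 Eln ran from 19.1 to 28.3 CPM with a median of 22.8, so every treated mouse lay between the WT and Veh groups. It was 4.14-fold lower than in Veh mice (log2 fold change -2.05, SE 0.12, adjusted p = 4.1e-09) and remained 1.72-fold higher than in WT mice (0.78, SE 0.13, adjusted p = 6.8e-05). The ACEi mice had 51.4 (A11), 51.8 (A13) and 64.7 (A23) CPM, also apart from both groups. Ramipril left Eln 1.71-fold below Veh (log2 fold change -0.78, SE 0.15, adjusted p = 3.4e-04) and 4.15-fold above WT (2.05, SE 0.15, adjusted p = 1.3e-09). Both treatments were compared with the same Veh and the same WT mice.

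Fbn1 encodes fibrillin-1, which polymerises into the microfibril and also holds latent TGF-beta complexes in the matrix (chr2:125300594-125507993, minus strand). Its WT values were 7.97 (A3), 13.6 (A6), 17.3 (A14), 8.91 (A17) and 5.08 (A18) CPM, and its Veh values ran from 99.5 to 136 with a median of 118. Veh was 11.2-fold higher (log2 fold change 3.48, SE 0.26, adjusted p = 2.3e-10), with no overlap. The anti-miR-21 mice ran from 23.1 to 56.4 with a median of 37.2 CPM, and the ACEi mice had 67.8 (A11), 75.1 (A13) and 69.3 (A23).

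Fbn1 was 2.98-fold lower under anti-miR-21 than in Veh mice (log2 fold change -1.58, SE 0.22, adjusted p = 3.7e-06). With ACEi it was 1.67-fold lower (-0.74, SE 0.27, adjusted p = 0.0314). All ACEi values lay under all Veh values, yet this call was lost with flow cell as a term (-0.67, adjusted p = 0.0564), without the mice rich in adipocyte transcripts (-0.71, adjusted p = 0.113) and without any 1 of A4, A9, A20, A11, A13 or A23 (-0.67 to -0.78). Against WT mice Fbn1 stayed 3.74-fold higher under anti-miR-21 (adjusted p = 3.4e-06) and 6.68-fold higher under ACEi (adjusted p = 1.1e-07).

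Mfap2 and Mfap5 encode MAGP-1 and MAGP-2, small glycoproteins that bind fibrillin. Mfap2 (chr4:141010418-141015984, plus strand) had 1.51 (A3), 2.67 (A6), 2.28 (A14), 1.1 (A17) and 1.05 (A18) CPM in WT mice and ran from 19 to 27.6 with a median of 22.7 in Veh mice. That is 13.2-fold higher in Veh (log2 fold change 3.72, SE 0.25, adjusted p = 7.6e-11), with no overlap. Under anti-miR-21 it ran from 4.38 to 11 with a median of 7.31 CPM, and the ACEi mice had 12.6 (A11), 13.1 (A13) and 13.8 (A23). Each treated group lay apart from both Veh and WT. Mfap2 was 3.07-fold lower than Veh under anti-miR-21 (log2 fold change -1.62, SE 0.20, adjusted p = 1.2e-06) and 1.73-fold lower under ACEi (-0.79, SE 0.25, adjusted p = 0.0155). The ACEi call was lost without A11 (adjusted p = 0.0608), without A13 (adjusted p = 0.059) and without the mice rich in adipocyte transcripts (-0.70, adjusted p = 0.0928).

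Mfap5 (chr6:122505845-122529290, plus strand) showed the largest difference of the 9 genes between Veh and WT. The WT mice had 0.535 (A3), 1.07 (A6), 2.32 (A14), 1.31 (A17) and 0.671 (A18) CPM, and the Veh mice ran from 17 to 39.7 with a median of 28.3. The log2 fold change was 4.50 (SE 0.35, adjusted p = 5.7e-10). The anti-miR-21 mice ran from 1.7 to 4.89 with a median of 2.67, which overlapped the WT range, and the ACEi mice had 7.22 (A11), 3.51 (A13) and 5.72 (A23). Mfap5 also showed the largest decrease of the tested members in both treatments. It was 9.27-fold lower than Veh under anti-miR-21 (log2 fold change -3.21, SE 0.29, adjusted p = 5.9e-08) and 4.91-fold lower under ACEi (-2.30, SE 0.37, adjusted p = 8.0e-05). Against WT it stayed 2.45-fold higher under anti-miR-21 (adjusted p = 0.00623) and 4.62-fold higher under ACEi (adjusted p = 1.2e-04).

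Mfap4 encodes a fibrinogen-domain protein that binds elastin and fibrillin (chr11:61485431-61488900, plus strand). Its WT values were 2.05 (A3), 2.71 (A6), 2.2 (A14), 3.27 (A17) and 2.22 (A18) CPM, and the Veh mice ran from 19.6 to 33.2 with a median of 29. Veh was 10.9-fold higher (log2 fold change 3.45, SE 0.21, adjusted p = 2.4e-11), with no overlap. The treated values, which chose the gene, are given as a description only. Under anti-miR-21 they ran from 4.65 to 9.25 with a median of 5.78, and with ACEi they were 17 (A11), 19.6 (A13) and 27.7 (A23). The anti-miR-21 mice all lay under the Veh mice and above the WT mice, whereas the ACEi mice overlapped the Veh range. The fitted log2 fold change against Veh was -2.13 for anti-miR-21 and -0.35 for ACEi, and between anti-miR-21 and ACEi it was -1.78, a 3.44-fold difference in mean level. The ACEi value against Veh was 0.12 within flow cell A, which holds 1 ACEi mouse, and -0.73 within flow cell B. Mapk7 overlaps Mfap4 on the opposite strand, and whether the counting used strand is not given in the sources used here. Its own mean was 14.8 CPM in WT, 38 in Veh, 23.5 in anti-miR-21 and 25.3 in ACEi mice. If strand was not used, reads of both genes cannot be told apart where they overlap. Eln and Fbn1 are each overlapped by 1 gene on the opposite strand as well, Gm30003 and Gm9913, whose group means were at most 0.0446 and 0.218 CPM.

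The fibulins did not move as 1 group. Fbln2, a fibulin of vessel walls and basement membranes that binds fibrillin and tropoelastin (chr6:91212455-91272540, plus strand), had 5.75 (A3), 5.74 (A6), 7.05 (A14), 4.05 (A17) and 2.98 (A18) CPM in WT and ran from 28.7 to 54 with a median of 35.3 in Veh mice. It was 7.33-fold higher in Veh (log2 fold change 2.87, SE 0.22, adjusted p = 4.0e-10). The anti-miR-21 mice ran from 8.06 to 16 with a median of 12.9 CPM, and the ACEi mice had 11.8 (A11), 14 (A13) and 11.1 (A23). All treated mice lay under all Veh mice and above all WT mice, and the ACEi values fell inside the anti-miR-21 range. Against Veh the gene was 2.99-fold lower under anti-miR-21 (log2 fold change -1.58, SE 0.19, adjusted p = 7.9e-07) and 3.04-fold lower under ACEi (-1.61, SE 0.25, adjusted p = 5.3e-05).

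Fbln1, which binds fibronectin as well as elastin (chr15:85205949-85286535, plus strand), had 8.06 (A3), 15 (A6), 12.3 (A14), 14 (A17) and 4.82 (A18) CPM in WT and 32 to 65.7 with a median of 54.6 in Veh mice. It was 4.84-fold higher in Veh (log2 fold change 2.28, SE 0.25, adjusted p = 6.7e-08). The anti-miR-21 mice ran from 29.1 to 50.8 with a median of 33.4 and the ACEi mice had 40.1 (A11), 48.9 (A13) and 52.4 (A23), both inside or overlapping the Veh range. Neither treatment passed the test against Veh (anti-miR-21 -0.49, SE 0.22, adjusted p = 0.0596; ACEi -0.16, SE 0.27, adjusted p = 0.67). The anti-miR-21 difference passed under upper-quartile scaling (-0.56, adjusted p = 0.0321), under library totals (-0.80, adjusted p = 0.00497) and on the FPKM (-0.79, adjusted p = 0.0045). It passed as well with only these 2 groups in the fit (-0.48, adjusted p = 0.0346), with at least 10 counts in every mouse (-0.51, adjusted p = 0.0498), and without A18 (-0.49, adjusted p = 0.0261), A9 (-0.58, adjusted p = 0.0268), A2 (-0.60, adjusted p = 0.0293) or A8 (-0.57, adjusted p = 0.0379).

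Fbln5, which carries tropoelastin to the microfibril and binds lysyl oxidase-like 1 (chr12:101746565-101819055, minus strand), was the 1 member that did not separate between Veh and WT mice. Its WT values were 115 (A3), 213 (A6), 182 (A14), 111 (A17) and 48.7 (A18) CPM and its Veh values ran from 99.1 to 187 with a median of 169. The log2 fold change was 0.26 (SE 0.24, adjusted p = 0.345), and it passed the test under library totals (0.84), on the FPKM (0.94) and within flow cell B (1.22). The anti-miR-21 mice ran from 163 to 201.5 with a median of 183, and the ACEi mice had 194 (A11), 280 (A13) and 246 (A23), above all Veh mice. The ACEi difference from Veh was 0.58 (SE 0.28, adjusted p = 0.104), and that from WT was 0.84 (SE 0.29, adjusted p = 0.0213). The difference from Veh passed with only these 2 groups in the fit (0.58, adjusted p = 0.0272) and without A18 (0.58, adjusted p = 0.0223). The difference from WT was lost without A13 or A23 and with only the 2 groups compared in the fit (0.87, adjusted p = 0.0702). Within flow cell A, which holds 1 ACEi mouse, it was 0.56.

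Emilin1 encodes a glycoprotein at the interface of elastin and microfibrils that also limits TGF-beta processing (chr5:30913402-30921277, plus strand). WT mice had 33 (A3), 49.9 (A6), 44.1 (A14), 43.1 (A17) and 19.9 (A18) CPM and Veh mice 164 to 203.6 with a median of 200. It was 5-fold higher in Veh (log2 fold change 2.32, SE 0.18, adjusted p = 6.6e-10). The anti-miR-21 mice ran from 87.3 to 141 with a median of 109 CPM, under all Veh mice, and the ACEi mice had 141 (A11), 163 (A13) and 160 (A23), just under them. The gene was 1.72-fold lower than Veh under anti-miR-21 (log2 fold change -0.78, SE 0.16, adjusted p = 4.1e-04). With ACEi it did not pass (-0.30, SE 0.20, adjusted p = 0.256), although the groups did not overlap. The ACEi difference passed with only these 2 groups in the fit (-0.30, adjusted p = 0.0287) and under library totals (-0.57, adjusted p = 0.0435).

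Counted over the list, 6 of 8 tested members fell under anti-miR-21 and none rose. These were Eln, Fbn1, Mfap2, Mfap5, Fbln2 and Emilin1. Of all genes tested 30.5% were called lower in this comparison. Of the 8 tested members 6 lay wholly under the Veh range, against 17.9% of all genes. The median log2 fold change of the 8 was -1.58, against -0.04 for all genes. With ACEi 5 of 8 fell, the same as above without Emilin1, against 19.1% of all genes, and 6 of 8 lay wholly under the Veh range, against 18.8%. Fbln5 lay wholly above the Veh range, and the share of all genes that did so was not counted. The median of the 8 was -0.76, against -0.05. The ACEi group has 3 mice, and its count was 3 without A11 or without A13, and also 3 without the mice rich in adipocyte transcripts. Within the larger flow cell, A, 6 members passed for anti-miR-21 and 2 for ACEi, which has 1 mouse there, and within flow cell B 3 and 4 passed, with 1 anti-miR-21 mouse.

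**Figure D2:**
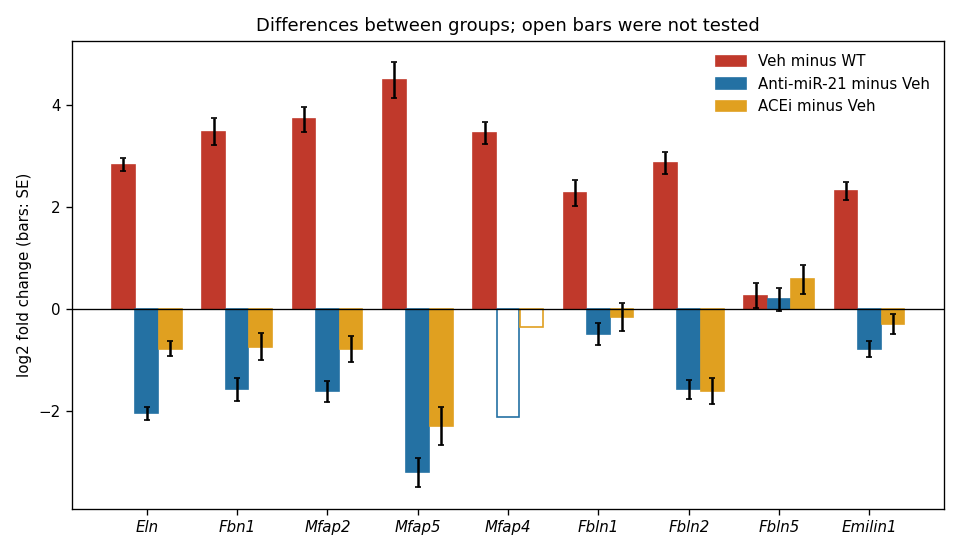
log2 fold change (y axis) of each gene (x axis) for Veh minus WT (red), anti-miR-21 minus Veh (blue) and ACEi minus Veh (yellow), with SE bars. Open bars are the Mfap4 values in treated mice, which were not tested. The blue bars reach -3.21 for Mfap5 and -2.05 for Eln, and the yellow bars are shorter than the blue ones except for Fbln2 and Fbln5.

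Neither treatment brought the list to the WT level. Under anti-miR-21 7 of the 8 tested members were higher than in WT mice (23.9% of all genes were), the exception being Fbln5 (0.45, SE 0.24, adjusted p = 0.143). Fbln5 passed on the log2(FPKM + 1) (0.82, adjusted p = 0.02), under library totals (0.70, adjusted p = 0.0271) and without A6 (0.68, adjusted p = 0.0274). Under ACEi 8 of 8 were higher (25.2% of all genes). Fbln5, which did not pass between Veh and WT mice, was among them (0.84, adjusted p = 0.0213), with ACEi values that overlapped those of WT. This Fbln5 call was lost without A13, without A23 and with only the 2 groups compared in the fit. The medians of the 8 tested members were 1.42 and 2.09 on the log2 scale.

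The distance covered differed between members. Placing each treated mouse on the log2 CPM line that runs from 0% at the mean of Veh to 100% at that of WT, the anti-miR-21 mice stood at 72.2 ± 8.1% (SD, n = 6) for Eln and 70.6 ± 11.4% for Mfap5. They stood at 45.3 ± 12.6% for Fbn1, 44.3 ± 12.8% for Mfap2 and 33.6 ± 12.7% for Emilin1. The ACEi mice stood at 27.4 ± 6.62% (SD, n = 3) for Eln, 20.5 ± 2.15% for Fbn1, 20.5 ± 1.7% for Mfap2 and 12.3 ± 4.77% for Emilin1. For Mfap5 they stood at 50.2 ± 11.5%, with mice from 40.3 to 62.8% that overlapped the anti-miR-21 mice at 52.5 to 85.2%. For Fbln1 the values were 20.8 ± 15.4% under anti-miR-21 and 5.33 ± 8.5% with ACEi. For Fbln2 the treated groups coincided, at 55.1 ± 13.5% and 54.6 ± 6.01%. For Mfap4 they were furthest apart, at 62.7 ± 10.9% and 10.3 ± 10.5%, the value it was chosen for. Core elastin thus came closer to WT under anti-miR-21 than the fibrillin it is laid on, as a description of these means.

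**Figure D3:**
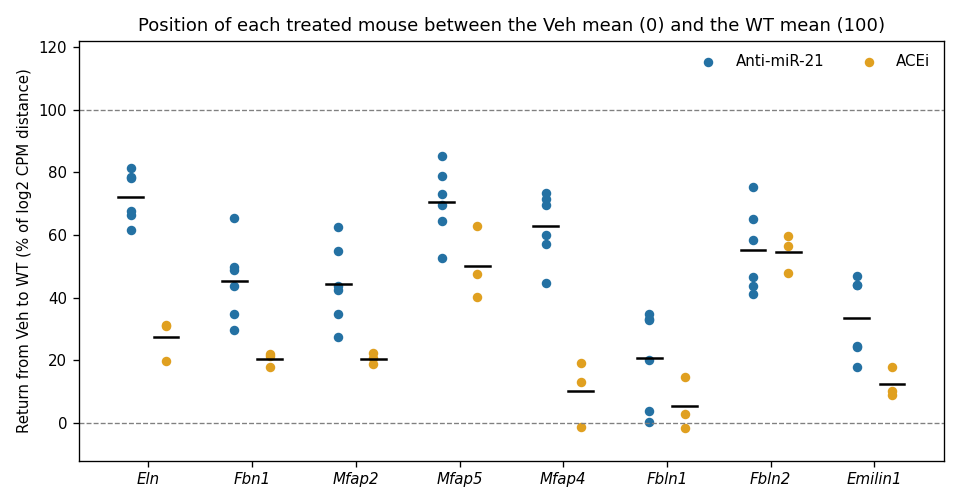
Position of each treated mouse (dots; black lines, group means) between the Veh mean at 0% and the WT mean at 100% of the log2 CPM distance, for the 8 genes that differed between Veh and WT. The anti-miR-21 and ACEi dots are far apart for Eln and Mfap4, and overlap for Fbln2, with means of 55.1% and 54.6%.

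Set side by side, anti-miR-21 had the lower mean in 8 of 9 members, the exception being Fbln2 (log2 fold change 0.02), which also lay below 0 on the log2 FPKM, under library totals and with flow cell as a term. In 5 of them, Eln, Fbn1, Mfap2, Mfap4 and Emilin1, all anti-miR-21 mice lay under all ACEi mice, as did 4.80% of all genes. For Emilin1 the gap was narrow, with 140.9 CPM in anti-miR-21 mouse A8 against 141.1 in ACEi mouse A11. The contrast between the treatments chose Mfap4, so nothing is read from the count. The fitted differences were -1.27 for Eln, -0.84 for Fbn1, -0.83 for Mfap2 and -0.92 for Mfap5.

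Scaled by gene length, the order of the members shifted between groups. In WT mice Fbln5 had the highest mean at 19 ± 9.4 FPKM (SD, n = 5) and Emilin1 the next at 8.93 ± 2.94, with ranges that overlapped. Fbln1 at 3.22 ± 1.33 and Eln at 2.94 ± 0.704 overlapped. Mfap4 (1.36), Mfap2 (1.35), Fbln2 (0.961), Fbn1 (0.901) and Mfap5 (0.675) were each within 1 SD of a neighbour. In Veh mice Emilin1 led at 67 ± 6.32 FPKM (n = 6). Fbln5 at 34.1 ± 6.72 and Eln at 31.6 ± 3.59 overlapped, as did Mfap2 (26.6), Fbln1 (23.2), Mfap5 (22.9) and Mfap4 (22.2). Fbn1 at 15.2 ± 1.83 and Fbln2 at 10.8 ± 2.8 were lowest. The FPKM entry of Fbln1 is marked in the authors' annotation as confounded with other genes. FPKM are not corrected for composition, so their Veh to WT ratios are larger than the CPM folds.

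**Figure D4:**
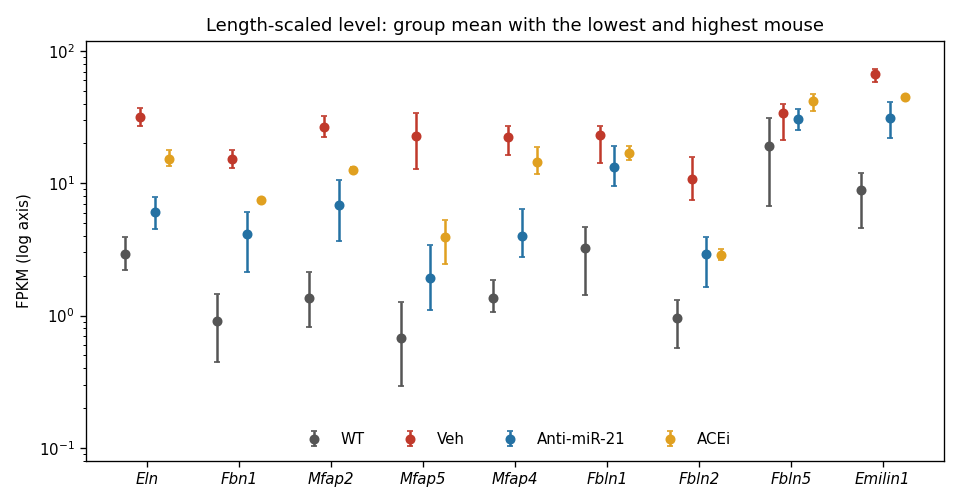
Length-scaled level in FPKM (y axis, log) of each gene by group; points are group means and bars run from the lowest to the highest mouse. Emilin1 and Fbln5 have the highest means in WT and in Veh mice, where the range of Fbln5 overlaps those of Eln, Mfap2, Mfap5, Mfap4 and Fbln1; Mfap5 has the lowest WT mean, 0.675 FPKM.

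The profile nearest to Mfap4 over the 20 mice was that of Eln, and the profile nearest to Eln was that of Mfap4. The root mean square difference of their standardised log2 CPM was 0.220, the lowest for either among 15326 protein-coding genes. Frk (0.270) and Ifnar2 (0.271) came next for Mfap4, and Col8a2 (0.240) and Tes (0.254) for Eln. Among the other members, only Mfap2 had a member among its nearest 3, Fbn1 at 0.158. These are descriptions over 20 mice that share 4 groups. The 20 include the treated mice whose values chose Mfap4, so no link between Mfap4 and Eln is read from them.

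Elastic fibre assembly takes place with other proteins, which were followed in lists of fixed membership. The first holds the other fibrillins, fibulins, emilins and latent TGF-beta binding proteins. Of 12 genes 11 were higher in Veh than WT mice, where 39.0% of all genes were, with a median log2 fold change of 1.60. Ltbp2, a latent TGF-beta binding protein of the microfibril, averaged 0.658 ± 0.169 CPM in WT and 161 ± 45.2 in Veh mice (log2 fold change 7.93, SE 0.34, adjusted p = 5.6e-13). Fbn2, the fibrillin of development, was barely detected in WT mice (0 to 6 counts per library, 0 in 2 of them) and averaged 8.73 ± 1.93 CPM in Veh mice (6.93, SE 0.46, adjusted p = 6.1e-11), a fold that depends on the prior count. Under anti-miR-21 11 of the 12 fell (30.5% of all genes did), Ltbp2 by 2.40 on the log2 scale (adjusted p = 5.7e-08) and Fbn2 by 1.52 (adjusted p = 5.2e-05). With ACEi 8 of 12 fell (19.1% of all genes did), Ltbp2 among them (-1.40, adjusted p = 4.4e-04), while Fbn2 did not pass (-0.44, adjusted p = 0.283). The ACEi count was 7 with flow cell as a term.

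Of the crosslinking and assembly proteins, 10 of 10 were higher in Veh than WT mice, against 39.0% of all genes. Lox, the lysyl oxidase that crosslinks elastin and collagen, averaged 3.18 ± 0.543 CPM in WT and 71.3 ± 13.4 in Veh mice (log2 fold change 4.48, SE 0.26, adjusted p = 1.2e-11). Loxl2 rose from 7.93 ± 3.37 to 77.3 ± 7.29 CPM (3.28, SE 0.23, adjusted p = 9.8e-11). Of the 10, 9 fell under anti-miR-21, against 30.5% of all genes (Lox -1.85, adjusted p = 2.9e-07; Loxl2 -1.35, adjusted p = 5.2e-06) and 6 under ACEi, against 19.1% (Lox -1.30, adjusted p = 5.0e-04; Loxl2 -0.69, adjusted p = 0.0236). The other 4 did not pass with ACEi, among them Adamtsl2, a secreted protein of the microfibril (0.17, adjusted p = 0.432). With flow cell as a term 7 of the 10 fell with ACEi.

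Of the enzymes that can cleave elastin, all 6 that were tested of the 7 listed rose in Veh mice, against 39.0% of all genes. Ctss, the macrophage cathepsin S, averaged 8.19 ± 2.97 CPM in WT and 225 ± 20.5 in Veh mice (log2 fold change 4.78, SE 0.25, adjusted p = 3.3e-12). Mmp12, macrophage elastase, averaged 2.01 ± 0.864 and 53.9 ± 11.3 (4.74, SE 0.33, adjusted p = 1.2e-10). All 6 fell under anti-miR-21 (30.5% of all genes did) and 4 of 6 under ACEi (19.1%), Mmp12 by 1.68 and 1.34 on the log2 scale and Ctss by 1.01 and 0.86. Of 8 integrin chains of RGD-binding receptors, 5 rose and 2, Itgb6 and Itgb8, fell in Veh mice, against 39.0% and 34.0% of all genes. Itgb3 differed by 2.48 (SE 0.21, adjusted p = 1.9e-09) and Itga5, of the fibronectin receptor, by 2.38 (SE 0.14, adjusted p = 2.1e-11). Under anti-miR-21 5 integrin chains fell and 2 rose, against 30.5% and 28.8% of all genes. With ACEi 4 fell and 1 rose, against 19.1% and 21.0%. These lists were chosen with earlier results of the data known and are described by their counts beside the share of all genes called.

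**Figure D5:**
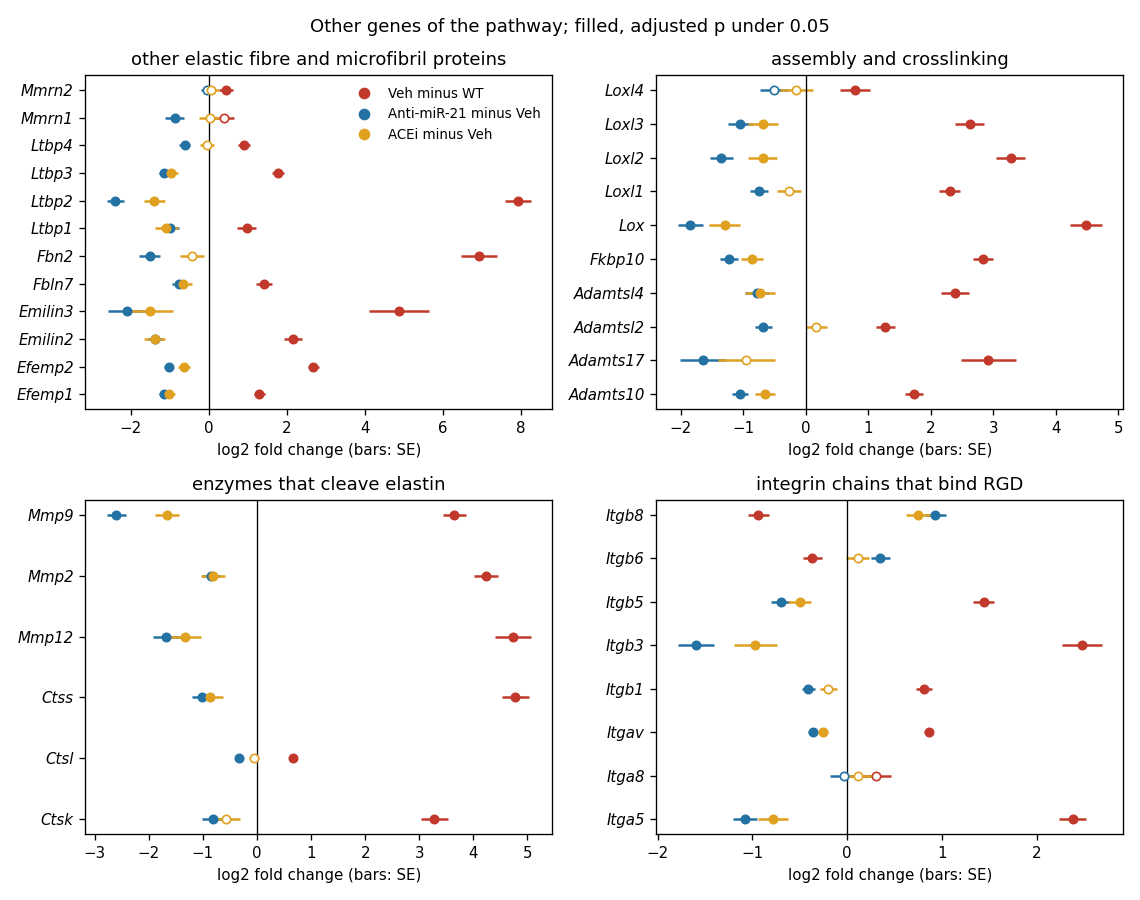
log2 fold change (x axis, SE bars) of the genes of 4 lists (rows) for Veh minus WT (red), anti-miR-21 minus Veh (blue) and ACEi minus Veh (yellow); filled points passed an adjusted p of 0.05. Ltbp2 and Fbn2 lie farthest to the right, at 7.93 and 6.93, and the blue and yellow points lie mostly left of 0.

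The summed levels of markers of cells that can make elastic fibres differed between groups. Fibroblast markers (5 of 5 tested) summed to 117 to 304 CPM in WT, 2273 to 2818 in Veh, 539 to 1115 in anti-miR-21 and 1191 to 1330 in ACEi mice. Of the 5, 5 were higher in Veh than WT mice, 4 fell under anti-miR-21 and 2 with ACEi, against 39.0%, 30.5% and 19.1% of all genes. Col1a1 and Col1a2, chains of type I collagen, made up most of that sum in Veh mice, with means of 1177 and 1075 CPM. Dcn, the matrix proteoglycan decorin, averaged 181 ± 28.4 CPM in Veh and 186 ± 38.4 in anti-miR-21 mice (log2 fold change 0.04, SE 0.17, adjusted p = 0.852).

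Smooth muscle markers (4 of 5 tested, Myocd being at 0 to 0.226 CPM in every library) summed to 150 to 200 CPM in WT, 343 to 469 in Veh, 213.8 to 262 in anti-miR-21 and 265 to 268 in ACEi mice. Of the 4, 3 were higher in Veh than WT mice, 3 fell under anti-miR-21 and 4 with ACEi, against 39.0%, 30.5% and 19.1% of all genes. Most of the difference in this sum between Veh and WT mice came from Tagln, at 33 to 50.2 CPM in WT and 187 to 258 in Veh mice. Smtn had 90.2 to 111 CPM in WT and 119 to 145 in Veh mice, and Cnn1 2.09 to 6.5 and 4.17 to 18. Myh11, the smooth muscle myosin heavy chain, did not pass between Veh and WT mice (0.32, SE 0.20, adjusted p = 0.164). Adventitial fibroblast markers (4 of 4) summed to 25.3 to 41.9, 69.9 to 91.6, 33.4 to 51.2 and 41.3 to 42.2 CPM in the same order. Of these, 2 were higher in Veh mice (39.0% of all genes were) and 2 fell under each treatment (30.5% of all genes under anti-miR-21, 19.1% with ACEi). Clec3b (-0.12, adjusted p = 0.76) and Scara5 (0.10, adjusted p = 0.757) did not pass between Veh and WT. Mesothelium markers (3 of 4 tested) summed to 3.78 to 17.1, 9.89 to 43.2, 2.17 to 6.49 and 3.35 to 4.76 CPM. The WT and Veh ranges overlapped, and the highest Veh sums were in A1 (43.2) and A4 (40.3). Of the 3, 1 was higher in Veh than WT mice and 2 fell under each treatment, against 39.0%, 30.5% and 19.1% of all genes.

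Markers of the kidney epithelium (6 of 6 tested) summed to 13365 to 15623 CPM in WT, 3055 to 7129 in Veh, 8635 to 12614 in anti-miR-21 and 7883 to 10512 in ACEi mice. In Veh mice 3 of the 6 were lower than in WT and 1 was higher, against 34.0% and 39.0% of all genes. With flow cell as a term 4 were lower. Slc34a1, the phosphate transporter of the proximal tubule, was 6.3-fold lower in Veh mice (log2 fold change -2.66, SE 0.23, adjusted p = 2.2e-09). The part of any of these cells in the members' differences was not tested.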

How the data were processed

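RNA was extracted from mouse kidney and sequenced as 100 bp paired-end reads by the authors, who aligned them to GRCm38 with OSA4 in OmicSoft. The estimated count table deposited by the authors, by Ensembl gene and not scaled, was used for tests after rounding, and the FPKM table deposited by the authors, scaled to exon length and mapped reads, for levels between genes. The alignment counts in the table deposited by the authors lay between 70004591 and 73294858 per library, and exon lengths came from the deposited annotation. The FPKM table holds 3 libraries that matched no sample and were not used. The deposited library table gives ramipril as 4 mg/kg, where the labels give 11 mg/L in water.

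Groups came from the labels, which name each mouse apart. All 20 mice entered 1 edgeR 4.0.16 quasi-likelihood fit (R 4.3.3) with TMM scaling, the filterByExpr minimum of 10 counts and 1 coefficient per group. P-values were adjusted by Benjamini-Hochberg over 17622 genes and called under 0.05. The SE of a log2 fold change was derived from the test, as its absolute value divided by the square root of the F statistic. Each p-value sets a difference between groups against the spread between mice within groups, estimated over all groups with information shared between genes. CPM are TMM-scaled; log2 CPM carry a prior count of 2. The script was tested on simulated data. Alternatives were DESeq2 1.42.0, limma 3.58.1 on log2(FPKM + 1) and with 0.1 in place of 1, other scalings and filters, flow cell as a term or within flow cells, and leaving out each mouse. Leaving out 4 mice with adipocyte transcripts was chosen after seeing the data.

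The members and lists were chosen with earlier results of these data known. Named genes were the 9 members, the 2 genes of each list with the largest difference between Veh and WT mice, the 3 nearest profiles of Mfap4 and Eln (of other members only where a member) and Col4a3. Itgb6, Itgb8, Umod, Adamtsl2, the marker genes and the genes overlapping members were named after their values were seen.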

Additional observations from a re-analysis of the deposited data

How the results depend on the processing

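The higher level of 8 members in Veh than WT mice held in every alternative run. Of 6 members lower under anti-miR-21 than in Veh mice, 3 passed within flow cell B, which holds 1 anti-miR-21 mouse. Of 5 members lower with ACEi, 2 passed within flow cell A, which holds 1 ACEi mouse, and 3 without the mice rich in adipocyte transcripts. Leaving out 1 mouse gave 8 members for Veh against WT, 6 to 7 for anti-miR-21 and 3 to 6 for ACEi against Veh, 7 to 8 for each treatment against WT, and 8 to 9 members below 0 between anti-miR-21 and ACEi. ACEi stood at 3 without A11 or A13. A lone mouse in a flow cell was assumed to vary like the other groups.

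The direction reversed for Fbln5 between Veh and WT within flow cell A (-0.19) and, between anti-miR-21 and Veh, on log2(FPKM + 1) (-0.13), log2(FPKM + 0.1) (-0.13), library totals (-0.14) and within flow cell B (-0.02). It reversed for Fbln1 between ACEi and Veh within flow cell A (0.15). None of these values passed the test. The Mfap4 difference between ACEi and Veh, given as a description only, also reversed within flow cell A (0.12). It was -0.35 in the main fit and -0.73 within flow cell B. The cause was not tested. Library totals without scaling moved the median of all genes between Veh and WT from 0.07 to 0.65 and that of the members from 2.87 to 3.47. Between anti-miR-21 and Veh they moved the median of all genes to -0.38, and between ACEi and Veh to -0.32. Upper-quartile scaling moved the first to 0.18. No paired analysis was possible because the labels name each mouse apart.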
